A study of Mus musculus with 12 samples.

Results

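The genes described here are the well-counted protein-coding genes of the female *miR-30a*-/- lung, compared between pups that had breathed hyperoxia in the first days of life and pups kept in room air. They were chosen by their raw counts: a gene is a member when its table entry is protein coding and it has 200 or more counts in each of the 6 female lungs. This held for 8628 of the 21936 protein-coding genes (39.3%), and the whole table lists 55487 genes. Just inside the limit were 340 genes with 200 to 209 counts in their lowest lung, with a median log2 fold change of -0.06, and just outside it 349 genes with 190 to 199 counts, with a median of -0.08. A minimum in every lung removes genes that were far lower in one group, and 10572 genes had a mean of 200 or more.

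All 12 lungs of the series, controls included, came from C57BL/6J mice in which the whole *miR-30a* gene was deleted with CRISPR/Cas9. The female hyperoxia group held 3 lungs (animals 2, 4 and 5) from pups that breathed 95% FiO2 from postnatal day (PND) 1 to PND 5 and then recovered in room air. The female room air group held 3 lungs (animals 2, 5 and 6), and 3 male lungs of each exposure entered the same model. All lungs were taken on PND 21, were perfused with PBS through the right ventricle and were flash frozen. Pups of several litters were pooled before they were assigned, so litter is not known for a lung. The deletion is in every cell of the body, and no wild-type lung was analysed here, so no value below speaks to the role of the miRNA.

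The deleted gene makes 2 mature miRNAs, shown here because every lung compared lacks them. The sequences are from RefSeq on GRCm38.p6, with the seed (bases 2 to 8) in capitals.
miR-30a-5p: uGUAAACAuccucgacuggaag
miR-30a-3p: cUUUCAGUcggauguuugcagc
They lie on the plus strand of chromosome 1, at chr1:23272274-23272295 and chr1:23272315-23272336.

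Neonatal hyperoxia is a standard model of bronchopulmonary dysplasia, the lung disease of preterm infants in which alveoli and capillaries fail to form in normal number. Excess oxygen injures alveolar epithelium and capillary endothelium through reactive oxygen species, and lungs taken after recovery show what remains of that injury. Whole-lung RNA mixes epithelium, endothelium, fibroblasts, muscle, immune cells and the blood left in the vessels. In such samples fewer cells of a type and less RNA per cell cannot be told apart.

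Depth was 10255870 to 16741694 counts in the female lungs, and the members held 77.6% to 79.2% of them. The largest single gene in every lung was *Gm10800*, a predicted gene that the table labels protein coding and that is itself a member. It took 9.52%, 6.04% and 16.6% of the counts in the room air lungs and 15.5%, 22.4% and 21.5% in the hyperoxia lungs. *Xist* had 8834 to 27296 counts and *Ddx3y* 0 counts in these lungs, as their female label says. Genes encoded by mitochondrial DNA were at 0 in all of them. Values below are CPM, counts scaled to a fixed total, of the upper-quartile normalised library. Fold changes and adjusted p are from edgeR's quasi-likelihood test of all 4 groups, adjusted by Benjamini-Hochberg over 45828 genes, and a call needed an adjusted p below 0.05 together with a change of more than 1.5-fold.

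The limit of 200 counts was set so that reads from genomic DNA would be a small share of a member's counts. That share was estimated by taking the median read density over genes of olfactory and vomeronasal receptors, few of which lung is thought to use, and multiplying it by the exon length of the gene. It was not small for most members. Its median was 14.2%, with 836 members (9.70%) under 5% and 2600 (30.1%) over 20%. The receptor genes themselves took 0.517%, 0.410% and 0.739% of the counts in the room air lungs and 0.669%, 0.781% and 0.847% in the hyperoxia lungs, so that room air replicate 6 lay within the range of the hyperoxia lungs and the other two room air lungs lay below it.

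Most members stood lower after hyperoxia. Their median log2 fold change was -0.25 (interquartile range -0.37 to -0.09), and 7212 of them (83.6%) had a negative value, against a median of 0.11 over all genes tested. Scaled on the members themselves, their median was 0.08, so that the direction depends on the scaling. The direction followed the background share. In the members with under 5% background the median log2 fold change was -0.45, and it was -0.37, -0.25, -0.04 and 0.24 in the members with 5% to 10%, 10% to 20%, 20% to 40% and over 40%. When the receptor share of each lung entered the model these medians lay between -0.0030 and 0.019. When the estimated background was subtracted from the counts instead, they were -0.23, -0.19, -0.14, 0.0033 and 0.20, so that the gradient remained in part. In males they lay between -0.05 and 0.07. What part the background plays in the general difference was not tested beyond these values. The position of a list against the median of the members (-0.25) is therefore given beside its own median.

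**Figure D1:**
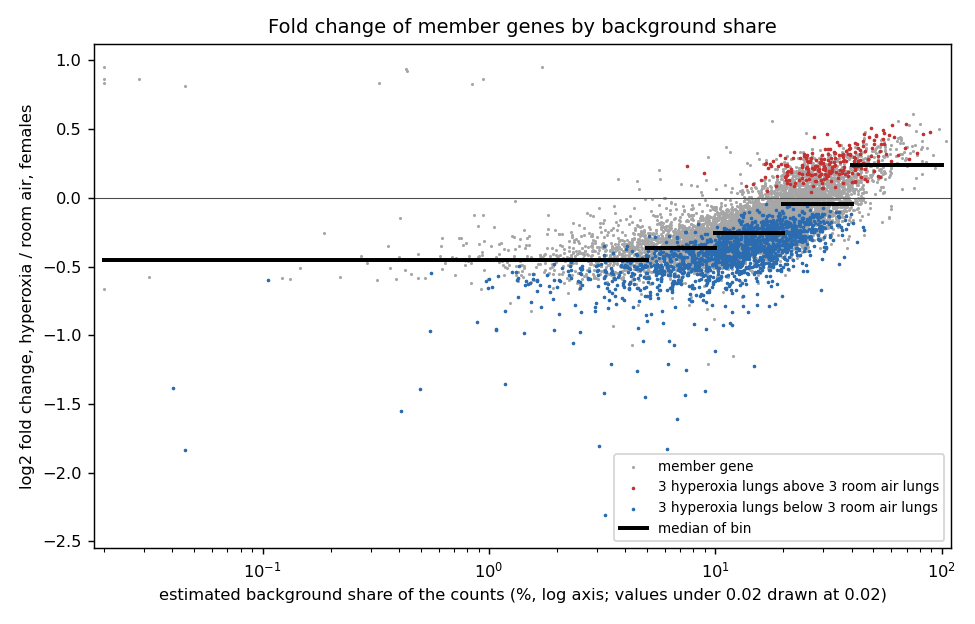
Each point is 1 of the 8628 members, with its estimated background share in % on a log axis (x) and its log2 fold change between 3 hyperoxia and 3 room air female lungs (y). Red and blue points are genes whose lungs did not overlap, and black bars are the bin medians, which go from -0.45 under 5% background to 0.24 over 40%.

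The normalised values of all 3 hyperoxia lungs lay below those of all 3 room air lungs for 1637 members, where the same holds for 6.42% of all genes tested. They lay above for 223 members (2.58%), against 10.8% of all genes. Both counts hang on the scaling. With each lung scaled on the members themselves, 516 members were lower and 1461 higher without overlap, where 1.55% and 21.1% of all genes tested were. This scaling moves the median of all genes by 0.30 on the log2 scale. Among members lower without overlap, 219 were down by more than 1.5-fold and 23 by more than 2-fold, where 1.21% and 0.201% of all genes tested were (2.54% and 0.267% of members). Up by more than 1.5-fold without overlap were 0 members, against 5.25% of all genes tested.

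Only 1 member passed the call. *Gda* (ENSMUSG00000058624) encodes guanine deaminase, which turns guanine into xanthine in purine breakdown, and lies on the minus strand of chromosome 19 (mm10, 21391307 to 21473445). Its level was 130 CPM in room air replicate 2, 88.4 in replicate 5 and 97.2 in replicate 6, and 28.3, 46.9 and 43.8 CPM in hyperoxia replicates 2, 4 and 5. The lowest room air lung was thus above the highest hyperoxia lung. *Gda* fell, with a log2 fold change of -1.41 ± 0.21 (SE) and an adjusted p of 0.0176 (edgeR), and 0.00218% of all genes tested were called. Leaving out single lungs moved the log2 fold change between -1.55 and -1.22, and the call was lost without room air replicate 2 (adjusted p = 0.199, edgeR) and without any 1 hyperoxia lung (adjusted p of 0.0599 to 0.162). In males *Gda* was at 75.6, 97.5 and 97.3 CPM in room air and at 48.4, 45.8 and 59.4 CPM after hyperoxia, again without overlap. The male log2 fold change was -0.81 ± 0.21, and the difference between the sexes had an unadjusted p of 0.0547 (edgeR). The log2 fold change was -1.45 with TMM, -1.41 with background subtracted and -1.08 when scaled on the members, and none of these 3 settings left a member called (adjusted p of 0.0665, 0.128 and 0.331 for *Gda*, edgeR). With the receptor share in the model *Gda* was at -1.42 with an adjusted p of 0.416 (edgeR). With replicate number as a block it was at -1.60 with an adjusted p of 0.102 (edgeR). The call was kept with 1, 2 and 3 RUVr factors (adjusted p of 0.00714, 0.0126 and 0.0209, edgeR) and with DESeq2 (1.4e-07, Wald test). It was also kept in the 6 female lungs alone and under 2 other count filters (adjusted p of 8.8e-05, 0.0221 and 0.0346, edgeR).

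At an unadjusted p under 0.05, 1451 members (16.8% of members) were lower, where 5.28% of all genes tested were. Higher were 106 members (1.23%), against 7.32% of all genes tested. Of the members, 9 had an adjusted p under 0.1: *Gda*, *Slc25a37*, *Rsad2*, *Tent5c*, *Bpgm*, *Myh6*, *Mkrn1*, *Alas2* and *Isg20*. All were lower after hyperoxia. With 1 factor of unwanted variation removed (RUVr, the step that the study's methods name without the number of factors), 165 members were called lower and 12 higher, where 0.794% and 3.37% of all genes tested were called in these directions.

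By list medians, the genes that stood furthest apart were those of red cells. The list of red cell and platelet markers has 16 genes, 9 of them members. Of these 9, 8 were lower without overlap, where 18.97% of all members and 6.42% of all genes tested were. The median log2 fold change of the 9 was -1.36, -1.11 from the median of the members. No gene of the list passed the adjusted threshold in this model.

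Alpha globin comes from *Hba-a1* and *Hba-a2*, adjacent copies on chromosome 11 so alike that reads may be split between them. *Hba-a1* was at 3685, 2226 and 2752 CPM in the room air lungs and at 441, 1072 and 915 CPM in the hyperoxia lungs. No lungs overlapped, and hyperoxia replicate 2 was the lowest. The log2 fold change was -1.84 ± 0.42 (SE, adjusted p = 0.176, edgeR). *Hba-a2* was at 215, 174 and 227 CPM against 36.4, 101.4 and 96.6 CPM. Beta globin comes from *Hbb-bs* and *Hbb-bt* on chromosome 7, again near copies. *Hbb-bs* was at 3293, 2551 and 2824 CPM in room air and 645, 1467 and 1213 CPM after hyperoxia, with a log2 fold change of -1.38 ± 0.40 (adjusted p = 0.295, edgeR). *Hbb-bt* was at 322, 220 and 261 CPM against 40.9, 137 and 96.5 CPM (log2 fold change -1.55, adjusted p = 0.129, edgeR). The 4 globin genes kept 1 order in the hyperoxia lungs, with replicate 2 lowest and replicate 4 highest.

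Several genes for enzymes and membrane proteins of maturing red cells were lower as well. *Alas2* starts haem synthesis in erythroid cells. It was at 366, 281 and 278 CPM in room air and at 83.9, 150 and 128 CPM after hyperoxia (log2 fold change -1.36 ± 0.27, adjusted p = 0.0916, edgeR). *Fech*, which puts iron into the haem ring at the last step, was at 199, 146 and 150 CPM against 79.2, 95.1 and 89.7 CPM. *Slc25a37* encodes mitoferrin-1, the carrier that brings that iron into mitochondria. It was at 246, 147 and 171 CPM against 53.2, 74.95 and 78.4 CPM, with a log2 fold change of -1.45 ± 0.25 (adjusted p = 0.0756, edgeR). None of these genes overlapped between the groups.

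*Slc4a1*, the band 3 anion exchanger of the red cell membrane, was at 256, 184 and 179 CPM in room air and at 52.8, 104 and 111 CPM after hyperoxia. *Bpgm*, which makes the 2,3-bisphosphoglycerate that lowers the oxygen affinity of haemoglobin, was at 104, 69.9 and 81.6 CPM against 22.04, 50.3 and 38.4 CPM. *Tent5c*, a poly(A) polymerase abundant in erythroid and plasma cells, was at 327, 265 and 267 CPM against 71.0, 136 and 114 CPM (log2 fold change -1.42, adjusted p = 0.0881, edgeR). *Mkrn1*, a ubiquitin ligase, and *Ube2o*, which clears proteins from maturing red cells, were lower without overlap, by -1.07 and -1.04 on the log2 scale (adjusted p = 0.0881 and 0.107, edgeR). *Slc4a1*, *Bpgm*, *Alas2*, *Fech*, *Mkrn1* and *Ube2o* were named after their values were seen. The exception among the 9 members was *Itga2b*, the platelet integrin, at 32.6, 33.1 and 28.9 CPM in room air and 33.5, 33.0 and 33.5 CPM after hyperoxia. Of the 6 list genes that were tested but are not members, 2 were lower without overlap, where 6.42% of all genes tested were.

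*Rsad2*, known as the antiviral gene viperin, had its lungs in the order of *Hba-a1*, with replicate 2 highest in room air and lowest after hyperoxia. It was at 113, 70.8 and 86.9 CPM in room air and at 18.4, 52.3 and 29.6 CPM after hyperoxia. Its log2 fold change was -1.44 ± 0.28 (adjusted p = 0.0881, edgeR). *Isg20*, an RNA exonuclease named for its response to interferon, was at 49.8, 39.6 and 41.2 CPM against 22.7, 27.1 and 24.1 CPM, and *Ube2l6* at 125, 98.9 and 109 CPM against 41.4, 69.8 and 58.0 CPM. In each of the 3 genes room air replicate 6 lay between the other two room air lungs.

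The male lungs, which took no part in choosing the members, gave their own values for these genes. *Hba-a1* was at 2138, 2458 and 3090 CPM in male room air lungs and at 917, 746 and 1952 CPM in male hyperoxia lungs (log2 fold change -1.09 ± 0.41), and 7 of the 9 red cell and platelet members were lower in males without overlap. Of the 12 members with the largest negative differences in females, 7 were lower without overlap in males, where 3.89% of all genes tested were. The median of the list in males stood -0.92 from the male median of the members. In males 0 members were called by edgeR, with 136 (1.58% of members) at an unadjusted p under 0.05, where 2.70% of all genes tested were, and a smallest adjusted p of 0.494. The response of *Hba-a1* differed between the sexes by -0.75 ± 0.58 on the log2 scale (unadjusted p = 0.207, edgeR).

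The summed level of all 16 markers ran from 5985 to 8587 CPM in the female room air lungs and from 1483 to 3278 CPM in the female hyperoxia lungs. In males it ran from 5538 to 7955 CPM and from 2398 to 5083 CPM. No marker was at 0 in all female lungs. The lungs had been perfused, and how much blood each still held is not given in the sources used here. With room air replicate 6 left out the list stood -0.97 from the median of the members, and -1.34 when the receptor share entered the model.

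**Figure D2:**
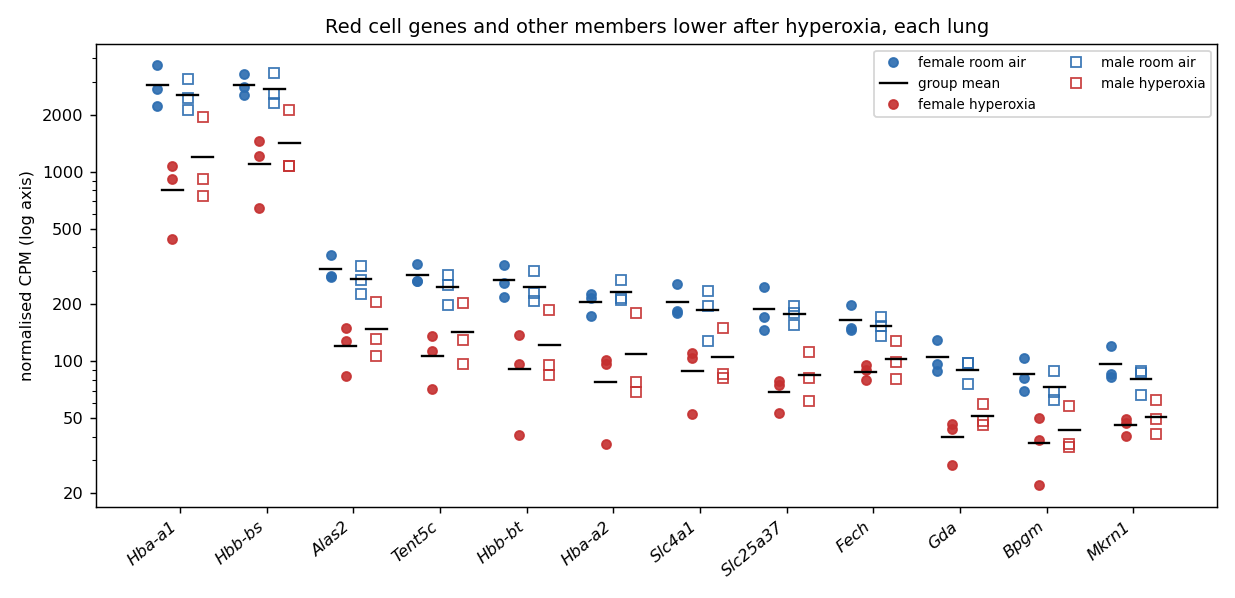
Normalised CPM on a log axis for 12 members tied to red cells or lower together with them, with a point per lung, circles for females, squares for males, blue for room air and red for hyperoxia, and black bars for group means. Female circles of the 2 colours do not overlap for any gene, and *Hba-a1* goes from 2226 to 3685 CPM in room air to 441 to 1072 CPM after hyperoxia.

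Erythroid genes are switched on by GATA1, a factor that binds the core letters GATA. The stretches below are shown because the 4 globin genes and *Alas2* stand among the lowest members after hyperoxia and each carries the letters GATAA, on 1 strand or the other, in the 250 bases before its RefSeq transcription start. They are RefSeq sequence on GRCm38.p6, 5′ to 3′ along the gene, with the match in capitals.
Hba-a1 and Hba-a2: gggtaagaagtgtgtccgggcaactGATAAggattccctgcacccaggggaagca
Hbb-bs: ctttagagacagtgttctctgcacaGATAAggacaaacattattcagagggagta
Hbb-bt: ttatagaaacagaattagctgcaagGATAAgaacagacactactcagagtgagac
Alas2: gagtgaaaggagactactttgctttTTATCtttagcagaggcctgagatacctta
They lie at chr11:32283465-32283519 (plus strand) and, identical over this stretch, chr11:32296282-32296336 (plus), then at chr7:103828108-103828162 (minus), chr7:103814098-103814152 (minus) and chrX:150547306-150547360 (plus).

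The letters GATAA or TTATC stood in these 250 bases in 5 of the 7 red cell and platelet members that the promoter table holds. Of these, 4 are globin genes, in pairs of near copies, and the stretches of *Hba-a1* and *Hba-a2* are identical. The letters stood in 25.5% of all 27025 genes of the table and in 17.3% of its 6850 members. GAANNTTC, the core of the heat shock element, stood in 1 of 9 heat shock members (7.73% of all genes). A match is a run of letters and does not show that a factor binds there.

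The second group of large differences came from 1 lung. Interferons induce GTPases of the guanylate-binding and immunity-related families, which attack the vacuoles of intracellular microbes, and genes of antigen presentation. *Gbp2* was at 37.0 and 39.5 CPM in room air replicates 2 and 5 and at 347 CPM in room air replicate 6. After hyperoxia it was at 28.9, 34.8 and 21.7 CPM. The groups did not overlap, but replicate 6 alone was far from all other lungs. The log2 fold change was -2.31 ± 0.83 (adjusted p = 0.364, edgeR), and without replicate 6 it was -0.44.

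The same held for 3 more of the 12 largest negative differences. *Gbp7* was at 67.5, 56.4 and 348 CPM in room air and at 43.6, 51.2 and 38.2 CPM after hyperoxia. *Irgm2* was at 36.2, 34.3 and 202 CPM against 31.7, 33.5 and 24.2 CPM. *Wars*, the tryptophanyl-tRNA synthetase that interferon gamma induces, was at 68.3, 78.8 and 430 CPM against 57.6, 52.9 and 54.3 CPM. For each of them the last room air value is replicate 6. Without that lung their log2 fold changes were -0.49, -0.25 and -0.43.

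Of the 28 interferon-stimulated genes on the list, 12 were members. Of these, 9 were lower without overlap, where 18.97% of all members and 6.42% of all genes tested were. The median log2 fold change was -0.70, which is -0.45 from that of the members, and without replicate 6 the list stood only -0.08 from it. *Stat2*, a factor that carries the interferon signal to the nucleus, was at 74.3, 70.7 and 123 CPM in room air and at 56.2, 51.4 and 50.8 CPM after hyperoxia, with replicate 6 highest. *Irf9*, its partner, was less tied to 1 lung, at 59.2, 57.9 and 68.3 CPM against 42.5, 41.8 and 34.3 CPM (log2 fold change -0.64, adjusted p = 0.291, edgeR). Summed over the list, room air ran from 815 to 1674 CPM and hyperoxia from 592 to 679 CPM. In males the sums ran from 648 to 894 CPM and from 576 to 706 CPM.

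**Figure D3:**
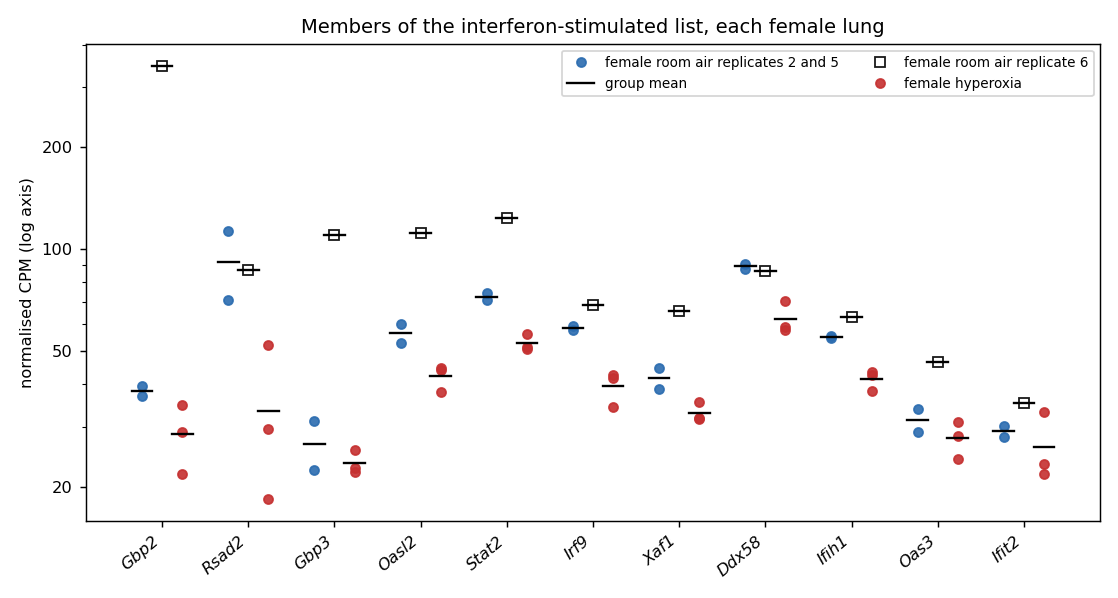
Normalised CPM on a log axis for 11 of the 12 members of the interferon-stimulated list in the 6 female lungs, with room air replicate 6 as an open black square, the other room air lungs in blue, hyperoxia in red and black bars for means (of 1 lung for replicate 6). *Gbp2* is at 347 CPM in replicate 6 and between 21.7 and 39.5 CPM in the other 5 lungs, whereas *Rsad2*, *Ddx58* and *Ifih1* do not stand apart in replicate 6 in this way.

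Genes of MHC and antigen presentation had 15 members, with a median log2 fold change of -0.58. Of these, 6 were lower without overlap, where 18.97% of all members and 6.42% of all genes tested were. The list stood -0.34 from the median of the members, and -0.08 without replicate 6. *Tap1*, a subunit of the peptide transporter, was at 48.3, 48.7 and 141 CPM in room air and at 40.9, 48.5 and 39.7 CPM after hyperoxia, so that the groups overlapped. *Tapbp*, which holds MHC class I to that transporter, was at 133, 136 and 172 CPM against 92.3, 84.4 and 76.5 CPM. Its log2 fold change was -0.80 ± 0.22 (adjusted p = 0.266, edgeR) and stayed between -0.87 and -0.68 when single lungs were left out.

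The summed level of the chaperone list ran from 1204 to 1621 CPM in room air and from 811 to 934 CPM after hyperoxia. Heat shock proteins fold new and damaged proteins and are induced when unfolded protein builds up. All 13 members of the list were below the median of the members. Lower without overlap were 11 of them, where 18.97% of all members and 6.42% of all genes tested were. Lower at an unadjusted p under 0.05 (edgeR) were 12, where 16.8% of members and 5.28% of all genes tested were. The median log2 fold change was -0.62, -0.37 from that of the members. *Dnaja1*, a co-chaperone of HSP70, was at 116, 120 and 96.2 CPM in room air and at 61.8, 62.7 and 50.4 CPM after hyperoxia. *Hsp90aa1*, the inducible HSP90, was at 89.1, 111 and 75.6 CPM against 47.4, 57.8 and 42.0 CPM. Every hyperoxia lung of both genes lay below every room air lung. Their log2 fold changes were -0.92 ± 0.21 and -0.91 ± 0.21 (adjusted p = 0.152 and 0.177, edgeR).

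*Hsp90ab1*, the constitutive HSP90, was at 371, 390 and 276 CPM against 201, 206 and 178 CPM. *Hspa8*, the constitutive HSP70, was at 234, 264 and 189 CPM against 132, 150 and 103 CPM. *Chordc1*, an HSP90 co-chaperone, was at 60.3, 57.7 and 46.6 CPM against 34.6, 34.0 and 27.8 CPM. *Dnajb1* was at 49.4, 53.1 and 46.4 CPM against 30.4, 30.6 and 29.8 CPM, with the hyperoxia lungs within 1 CPM of each other. The genes from *Hsp90ab1* to *Dnajb1* were named after their values were seen.

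*Dnaja1* was at 47.8, 64.6 and 54.5 CPM in male room air lungs and at 74.1, 41.8 and 63.4 CPM in male hyperoxia lungs, so that the male lungs of both exposures stood about where the female hyperoxia lungs did. None of the 13 members was lower without overlap in males, where 1.38% of all members were, and the list stood -0.13 from their male median. The difference of the response between the sexes had an unadjusted p under 0.05 in 7 of the 13 members (edgeR), where it had one in 8.46% of all genes tested and in 6.90% of members. It was -1.03 ± 0.29 for *Dnaja1* and -0.90 ± 0.25 for *Chordc1* on the log2 scale (unadjusted p = 0.00141 and 0.00132, edgeR). No member passed adjustment in that comparison, with a smallest adjusted p of 0.578 (edgeR), whereas with 1 RUVr factor removed 364 members had a lower and 48 a higher response in females, where 1.28% and 3.33% of all genes tested did. The median of the heat shock list was -0.29 when scaled on the members, and it stood -0.38 from the members' median when the receptor share entered the model.

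**Figure D4:**
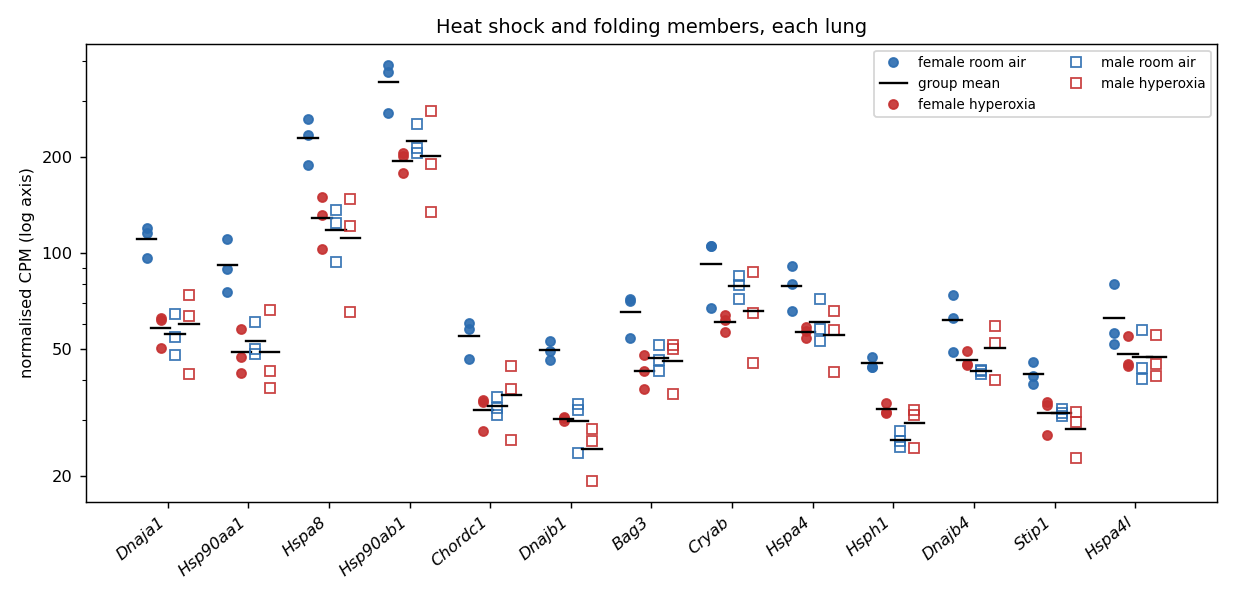
Normalised CPM on a log axis for the 13 members of the heat shock and folding list in each lung, with circles for females, squares for males, blue for room air, red for hyperoxia and black bars for means. The female room air lungs lie highest for most genes, and *Dnaja1* is at 96.2 to 120 CPM there and at 41.8 to 74.1 CPM in all other lungs.

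The unfolded protein response, the matching system of the endoplasmic reticulum, had 18 members, of which 17 were below the median of the members. Lower without overlap were 11 of the 18, where 18.97% of all members and 6.42% of all genes tested were. The list stood -0.24 from that median, -0.06 when the receptor share entered the model and -0.19 with background subtracted. *Hspa5*, the luminal HSP70 (BiP), was at 164, 191 and 121 CPM in room air and at 102, 98.6 and 93.4 CPM after hyperoxia. *Calr*, calreticulin, was at 256, 288 and 188 CPM against 170, 153 and 154 CPM. Neither overlapped, though room air replicate 6 stood nearest to the hyperoxia lungs in both. Their log2 fold changes were -0.69 ± 0.24 and -0.62 ± 0.26 (adjusted p = 0.351 and 0.364, edgeR).

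Immediate early genes, transcribed within minutes of a stimulus, and Krüppel-like factors of endothelium had 15 members. Of these 15, 8 were lower without overlap, where 18.97% of all members and 6.42% of all genes tested were. The list's median log2 fold change of -0.71 was -0.46 from the median of the members in females. In males the list stood 0.01 from the male median of the members. *Klf4* was at 160, 221 and 172 CPM in room air and at 77.4, 64.9 and 124 CPM after hyperoxia (log2 fold change -1.05 ± 0.27, adjusted p = 0.234, edgeR). *Klf2*, which laminar flow induces in endothelium, was at 215, 272 and 228 CPM against 116, 95.7 and 156 CPM. In both, hyperoxia replicate 5 was the highest of its group. *Nr4a1*, an orphan nuclear receptor, overlapped between the groups through that lung, at 84.6, 147 and 119 CPM against 36.3, 40.8 and 89.2 CPM.

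Among genes of the alveolar wall the differences were smaller and varied with room air replicate 6. All 21 members that mark alveolar type 2 cells, the makers of surfactant, had a negative log2 fold change. Their median of -0.52 was -0.28 from that of the members. Of the 21, 2 were lower without overlap, where 18.97% of all members and 6.42% of all genes tested were. Without replicate 6 all 21 were lower without overlap, as were 69.5% of all members. When the receptor share entered the model, the list stood 0.06 from the median of the members, the type 1 list 0.0024 and the general capillary list 0.07. With background subtracted the same 3 positions were -0.17, -0.09 and -0.06. *Sftpc*, surfactant protein C, was at 4643, 5233 and 2617 CPM in room air and at 3087, 2614 and 2693 CPM after hyperoxia, so that replicate 6 stood with the hyperoxia lungs. Its log2 fold change of -0.57 (adjusted p = 0.500, edgeR) turned to 0.07 when the receptor share entered the model and was -0.31 with background subtracted. The members that did not overlap were the lipid synthesis genes *Scd1* and *Fasn*. *Scd1*, stearoyl-CoA desaturase, was at 1164, 1637 and 925 CPM against 549, 810 and 546 CPM (log2 fold change -0.97 ± 0.34, adjusted p = 0.351, edgeR).

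Alveolar type 1 cells, the flat cells of gas exchange, had 20 members, 4 of them lower without overlap (18.97% of all members were) and 20 without replicate 6 (69.5% of all members). Their median of -0.46 stood -0.21 from that of the members. *Aqp5*, their water channel, was at 126, 124 and 66.5 CPM in room air and at 63.9, 63.8 and 64.3 CPM after hyperoxia. The 3 hyperoxia lungs agreed within 1 CPM, and replicate 6 lay just above them. *Ndnf* was at 505, 462 and 209 CPM against 197, 211 and 209 CPM, which overlapped. In the general capillary list, 4 of 19 members were lower without overlap and 17 without replicate 6, against the same 2 shares, and the median stood -0.19 from that of the members. *Kdr*, the VEGF receptor of endothelium, was at 408, 390 and 244 CPM against 284, 213 and 209 CPM, which overlapped as well.

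Over all members, 6000 (69.5%) were lower without overlap when replicate 6 was left out and 670 (7.77%) were higher, where 20.04% and 28.6% of all genes tested were. In the model without that lung 57 members were called lower and 1 higher, where 0.242% and 0.199% of all genes tested in it were. This lung was thus close to the hyperoxia lungs for alveolar, capillary and matrix genes and above every other lung for *Gbp2*, *Gbp7*, *Irgm2*, *Wars* and *Stat2*. Its *Gm10800* share (16.6%) and receptor share (0.739%) lay within the range of the hyperoxia lungs.

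Antioxidant genes, most of them targets of NRF2, are the classic response while oxygen is being breathed. At PND 21 the list had 20 members, 13 lower without overlap and 0 higher. Of all members 18.97% were lower and 2.58% higher, and of all genes tested 6.42% and 10.8%. The median log2 fold change of the list was -0.44. That is -0.19 from the median of the members, -0.14 when the receptor share entered the model and -0.13 with background subtracted. *Gclc*, the catalytic subunit of the enzyme that limits glutathione synthesis, was at 119, 146 and 83.0 CPM in room air and at 72.1, 64.5 and 64.5 CPM after hyperoxia. *Sod3*, the extracellular superoxide dismutase, was at 288, 274 and 168 CPM against 159, 142 and 163 CPM. Neither overlapped, and their adjusted p were 0.331 and 0.357 (edgeR).

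Cholesterol synthesis had 13 members, 8 of them lower without overlap, where 18.97% of all members and 6.42% of all genes tested were. The list had a median of -0.56 in females that was -0.32 from the members' median. In males it stood -0.25 from the members' male median. *Insig1*, which holds the sterol sensor in the endoplasmic reticulum, was at 50.9, 47.3 and 31.4 CPM in room air and at 25.8, 29.3 and 26.2 CPM after hyperoxia. *Cyp51*, lanosterol demethylase, was at 31.2, 35.0 and 25.04 CPM against 20.4, 21.1 and 17.7 CPM (log2 fold change -0.63 ± 0.15, adjusted p = 0.209, edgeR).

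Collagens and their processing enzymes had 30 members, and their median stood only -0.11 from that of the members. Of the 30, 9 were lower without overlap, where 18.97% of all members and 6.42% of all genes tested were. *Serpinh1*, the collagen chaperone HSP47, was at 292, 271 and 158 CPM against 139, 152 and 146 CPM. *Col3a1* was at 819, 927 and 518 CPM against 486, 513 and 463 CPM. Elastic fibre genes had 20 members with 2 lower without overlap, and the VEGF, angiopoietin and Notch list had 23 members with 2. Of all members 18.97% were lower without overlap, and of all genes tested 6.42%. Without replicate 6 the counts of these lists were 16 and 18, and that of the collagens 26. In that setting 69.5% of all members and 20.04% of all genes tested were lower without overlap. The elastic fibre median and the VEGF, angiopoietin and Notch median stood -0.01 and -0.03 from that of the members.

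The plot of list medians shows these groups on 1 scale. Of the 53 lists with 3 or more members, 49 had a negative median and 40 lay below the median of all members. Among the lists with 8 or more members, red cell and platelet markers lay lowest in both sexes. Mitosis genes stood highest in females, 0.41 from the median of the members, with 0 of 8 members higher without overlap and 5 of 8 without replicate 6 (7.77% of all members). Their median background share was 34.4%, and when the receptor share entered the model the list stood -0.04 from the median of the members. With background subtracted it stood 0.33 from it.

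**Figure D5:**
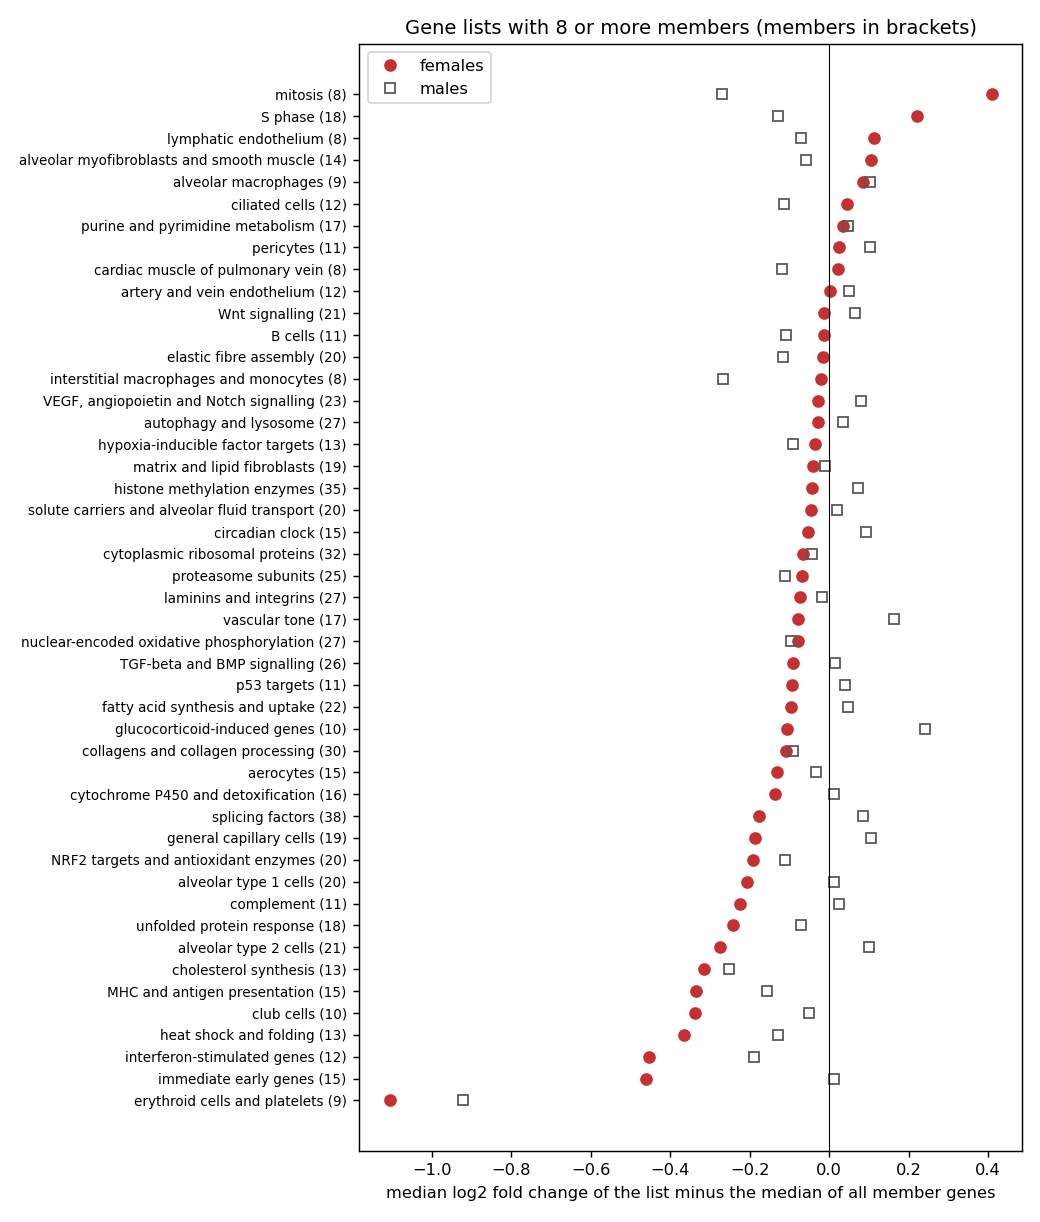
Median log2 fold change of each list with 8 or more members, minus the median of all members (x), for females (red circles) and males (open squares), with the number of members in brackets. Red cell and platelet markers stand at -1.11 in females and -0.92 in males, and immediate early genes at -0.46 in females and 0.01 in males.

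Atrial-type muscle, which sheathes the pulmonary veins of mice, gave 2 of the larger single-gene differences. *Myh6*, the alpha myosin heavy chain, was at 104, 91.1 and 95.8 CPM in room air and at 58.4, 34.5 and 41.4 CPM after hyperoxia, with a log2 fold change of -1.11 ± 0.20 (adjusted p = 0.0881, edgeR). *Actc1*, cardiac actin, was at 55.6, 53.7 and 49.1 CPM against 23.1, 24.2 and 18.9 CPM (log2 fold change -1.26 ± 0.58). The lungs of both genes did not overlap. The list did not share 1 direction, since 3 of its 8 members (*Myh7*, *Mybpc3* and *Hcn4*) had positive values of 0.06 to 0.18 on the log2 scale. *Ttn*, titin of striated muscle, was at 462, 370 and 419 CPM against 296, 290 and 311 CPM, and its error was wide (log2 fold change -0.48 ± 0.84), with 1 male room air lung at 3950 CPM.

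The 12 largest positive differences without overlap were small. They were *Olfr1307*, *Dlg2*, *Faxc*, *Cntnap2*, *Mdga2*, *Adamts18*, *Crb1*, *Gldc*, *Myh8*, *Lrrc37a*, *Dlgap1* and *Frmpd3*, with log2 fold changes of 0.45 to 0.54 and adjusted p of 0.307 to 0.825 (edgeR). Several of them (*Dlg2*, *Cntnap2*, *Dlgap1*, *Mdga2*) encode synaptic or neuronal adhesion proteins. The list of Schwann cell and neuron markers went the other way, with 3 members, all 3 with a negative log2 fold change and a median of -0.36. *Dlg2*, a synaptic scaffold, was at 22.7, 22.1 and 30.8 CPM in room air and at 32.5, 36.8 and 39.5 CPM after hyperoxia. *Gldc*, the glycine decarboxylase, was at 18.8, 15.3 and 22.04 CPM against 23.4, 26.2 and 27.8 CPM. *Olfr1307* is an olfactory receptor and so belongs to the families that the background estimate was made from.

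The background share was 31.0% to 89.2% for these 12 genes and 0.0403% to 8.997% for the 12 largest negative differences. When the receptor share entered the model, the log2 fold changes of the former went from -0.48 (*Myh8*) to 0.39 (*Frmpd3*). With background subtracted they were larger, at 0.66 to 0.91. How far the background made them was not tested. *Cd4*, the co-receptor of helper T cells, was the highest of the T and NK cell members, at 18.2, 18.6 and 17.1 CPM against 23.2, 22.4 and 22.3 CPM (log2 fold change 0.33 ± 0.14, adjusted p = 0.368, edgeR), with a background share of 22.2%. Of the 4 members of that list, 2 had positive and 2 negative log2 fold changes.

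Higher fold changes were found only where the lungs overlapped. All 11 members with a log2 fold change over 0.8 were predicted genes named Gm with a number, among them *Gm10800*, *Gm10801* and *Gm10720*, with values of 0.81 to 0.95 and adjusted p of 0.352 to 0.565 (edgeR). *Gm10720* was at 25.5, 18.8 and 49.6 CPM in room air and at 43.6, 76.2 and 61.7 CPM after hyperoxia, with replicate 6 inside the hyperoxia range. Reads of repeated models of this kind may be split among near copies. *Cyp26b1* degrades retinoic acid, a signal of alveolar septation. It was at 25.5, 29.6 and 26.9 CPM in female room air lungs and at 39.1, 24.9 and 57.1 CPM in female hyperoxia lungs (log2 fold change 0.56 ± 0.25, adjusted p = 0.382, edgeR). In males it was at 22.8, 29.0 and 23.7 CPM against 98.9, 46.4 and 54.3 CPM, without overlap (log2 fold change 1.40 ± 0.25, adjusted p = 0.494, edgeR). *Cyp26b1*, the Gm genes, *Ttn*, *Myh7*, *Mybpc3* and *Hcn4* were named after their values were seen.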

How the data were processed

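The authors used trim galore for trimming and STAR for alignment to mm10, and the deposited values are raw read counts per gene from featureCounts, with no normalization. Their versions, strand setting and annotation release are not given in the sources used here, and the labels and methods name different stranded library kits. Without a stated strand setting, reads of overlapping genes may be shared. The table lists 55487 genes, of which 55227 matched GENCODE mouse release 21 (exon lengths and positions), and 0 columns were left without a sample. No molecular identifiers are described, and 3 counts stood at 0.179 to 0.293 CPM in the female lungs. The ComBat-seq batch step that the methods name was not repeated, since the wild-type libraries were not analysed and no batch is labelled here.

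The model was fitted in edgeR 4.0.16 under R 4.3.3 (robust quasi-likelihood fit, upper-quartile normalization, filterByExpr, 12 lungs in 4 groups, biological coefficient of variation 0.177), limma 3.58.1 and DESeq2 1.42.0. Python 3.11.15 with pandas 2.3.3 made the tables. The method was tested on simulated data. The replicate numbers name animals, and the labels tie no number to a shared animal, litter or day, so they were not used as pairs. P-values measure the spread between these lungs. Background per gene was its exon length times the median read density over 1490 receptor genes.

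Members and the 56 gene lists were chosen with earlier results of these data known. Named genes are the 12 largest positive and negative differences without overlap, every called member, and up to 2 non-overlapping members with the largest change per list. Others are marked as named after their values were seen, as are *Ube2l6*, *Isg20*, *Itga2b*, *Stat2*, *Irf9*, *Tap1*, *Nr4a1*, *Sftpc*, *Ndnf*, *Kdr*, *Ddx58*, *Ifih1* and *Neb*. 1 member of the interferon-stimulated list is not reported here. Alternatives are given in the closing section.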

Additional observations from a re-analysis of the deposited data

Results flagged for a closer look

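*Frmpd3* was higher after hyperoxia in females and lower in males, with no overlap of lungs in either. Its level was 17.6, 18.5 and 21.0 CPM in female room air lungs and 26.8, 25.2 and 26.04 CPM in female hyperoxia lungs. In males it was at 14.7, 14.0 and 14.1 CPM in room air and at 12.9, 13.2 and 12.3 CPM after hyperoxia, with a log2 fold change of -0.16 ± 0.14 (unadjusted p = 0.269, edgeR), about 1 SE from 0. The responses differed by 0.609 on the log2 scale (unadjusted p = 0.00375, adjusted p = 0.578, edgeR), so the difference did not pass adjustment. Background made up an estimated 51.5% of its counts.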

How the results depend on the processing

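Members called lower and higher numbered 1 and 0 in the model reported, and both numbers depend on how unwanted variation is handled. With RUVr, 165 (1 factor), 160 (2 factors) and 171 (3 factors) were called lower, where 0.794%, 0.792% and 0.840% of all genes tested were. Called higher were 12 members each time, where 3.37%, 3.38% and 3.64% of all genes tested were. DESeq2 called 30 lower (0.0960% of all genes tested were), a fit of only the 6 female lungs 41 (0.160%), no filter on low counts 3 (0.0152%), and the receptor share as a covariate 5 lower (0.0393%) and 3 higher (0.00873%). TMM normalization, scaling on the members and background subtraction called 0 lower. A minimum of 500 counts also left 0, because *Gda*, with 323 counts in its lowest female lung, is then not a member. Leaving out 1 lung gave 0 to 57 lower and 0 to 1 higher. Without female room air replicate 6 there were 57 lower (0.242% of all genes tested) and 1 higher (0.199%). Without room air replicate 5 there were 2 lower (0.00426%), and without room air replicate 2 or hyperoxia replicate 5 there were 0. Members whose response differed between the sexes numbered 0 in the model reported and, with 1, 2 and 3 RUVr factors, 48, 48 and 46 higher and 364, 373 and 386 lower. With 1 factor, 3.33% and 1.28% of all genes tested were called higher and lower. The causes were not tested.

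The median of the members became 0.0763 when scaled on the members and 0.00932 with the receptor covariate. Counts without overlap, under settings chosen after seeing the data, were 1461 higher and 516 lower when scaled on the members, and 670 and 6000 without female room air replicate 6. Same-numbered lungs had deviations correlated at 0.238 and -0.302, and those of lungs with different numbers ran from -0.531 to 0.513. So few values cannot show whether the numbers pair lungs. The replicate block gave 0 called higher and 1 lower, which was *Rsad2*, with *Gda* at an adjusted p of 0.102 (edgeR).

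Single genes reversed as follows. With the receptor covariate the log2 fold change was -0.478 for *Myh8*, 0.0106 for *Efnb2*, -0.11 for *Actn3*, 0.012 for *Klf9*, 0.0171 for *Hes1*, 0.0736 for *Tcf7l2*, 0.0704 for *Sftpc* and -0.408 for *Neb*. When scaled on the members it was 0.0502 for *Cx3cr1*, 0.102 for *Usp2*, 0.018 for *Rrm2b*, 0.0124 for *Ampd3*, 0.0407 for *Efemp2*, 0.0298 for *Jag1*, 0.196 for *Tcf7l2*, 0.0529 for *Mcm4* and 0.00411 for *Rpl7l1*. With background subtracted it was -0.000797 for *Themis* and 0.0264 for *Tcf7l2*, and with DESeq2 -0.0211 for *Itga2b*.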
